A study of Homo sapiens with 10 samples.

Results

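Intergenic poly(A) peaks far from genes were examined in IMR-32 cells, a MYCN-amplified human neuroblastoma line. A peak was a member when its summit lay on chromosomes 1 to 22 or X and more than 10 kb, on either side, from the nearest gene body of any type in GENCODE 44. Of 177793 peaks on these chromosomes, 5046 (2.84%, 95% Wilson interval 2.76 to 2.92) were members, and they made up 34.8% of the 14497 intergenic peaks that lay outside the windows around annotated transcription end sites (TES). The cells had been transduced with lentiviral shRNA and selected with puromycin. The shRNA targeted the transcriptional kinase CDK12 (sh22 or sh98), its relative CDK13 (sh701 or sh704) or, as control, GFP (shGFP), with 2 libraries per shRNA and 10 libraries in all. The deposited peaks had been called once on the reads of all libraries together, after each had been reduced to the size of the smallest one. No value could therefore be assigned to a library, an shRNA or a kinase, no difference between conditions could be tested, and all values below describe the pooled cells.

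Most eukaryotic mRNAs and many long noncoding RNAs end where the cleavage and polyadenylation machinery cuts the nascent transcript, a short distance past a hexamer of the AATAAA type, and adds a poly(A) tail. Poly(A) 3′-seq reads the RNA from an oligo(dT) primer, which anneals to the tail and can also anneal to a run of A encoded in the genome and carried inside an RNA. Transcription is known to continue past gene ends before RNA polymerase II terminates, and intergenic DNA is rich in retrotransposons such as Alu, whose copies end in an A tract, and in retrocopies of mRNAs.

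The deposited list carried no strand, so sequence was read at both edges of each peak: the right edge as the RNA 3′ end of a plus-strand transcript, and the left edge, on the reverse complement, as that of a minus-strand transcript. An edge was called A-rich when at least 7 of the 10 bases past it were A. It was called a hexamer site when AATAAA or ATTAAA started 10 to 40 bp before it and at most 6 of the 10 bases past it were A. The summit pileup is the number of reads stacked at the summit, as the peak caller counted them. The members with the highest pileup among those with a hexamer site at 1 edge only are shown first, as examples of this sequence class. Each sequence runs 5′ to 3′ in GRCh38, from 90 bases before to 20 bases past the edge, and the capitals mark the hexamer nearest the edge.
Member past ETAA1, chr2:67474881-67474990, minus strand: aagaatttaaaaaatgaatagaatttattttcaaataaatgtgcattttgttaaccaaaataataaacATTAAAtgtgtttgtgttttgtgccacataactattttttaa
Member near RN7SKP168, chr2:17185345-17185454, minus strand: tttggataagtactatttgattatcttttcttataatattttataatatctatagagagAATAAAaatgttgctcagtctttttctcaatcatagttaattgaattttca
Member near LRATD1, chr2:14605972-14606081, plus strand: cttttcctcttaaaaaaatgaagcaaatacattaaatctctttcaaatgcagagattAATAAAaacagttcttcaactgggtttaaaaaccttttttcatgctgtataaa
Member near LINC01256, chr4:132528127-132528236, plus strand: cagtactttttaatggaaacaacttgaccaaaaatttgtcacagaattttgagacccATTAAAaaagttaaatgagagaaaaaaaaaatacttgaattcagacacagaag
Member near a Y_RNA gene, chr9:67627015-67627124, minus strand: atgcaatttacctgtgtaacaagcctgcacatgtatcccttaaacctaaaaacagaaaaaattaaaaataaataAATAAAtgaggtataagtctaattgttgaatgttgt
Member near RN7SL291P, chrX:44794830-44794939, plus strand: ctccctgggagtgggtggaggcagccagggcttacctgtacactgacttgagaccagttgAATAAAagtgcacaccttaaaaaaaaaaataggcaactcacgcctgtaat
The pileups of these members were, in the order shown, 74, 59, 54, 35, 35 and 33 reads, and their hexamers started 22, 31, 33, 33, 16 and 30 bp before the edge. The first 3 and the fifth had a summit sequence of 31 bases that occurs in 1 place of the genome, whereas that of the fourth occurs in 11 places and that of the sixth in 5. Here and below, places are exact matches on chromosomes 1 to 22 and X only. The fourth and the sixth also carried unbroken runs of 10 and 11 A that ended just before the edge and so outside the window in which A was counted.

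The A-rich members among the 10 strongest are shown in the same way as examples of the other class, with capitals marking the 10 bases past the edge.
Member in the NBAS run, chr2:15050247-15050356, minus strand: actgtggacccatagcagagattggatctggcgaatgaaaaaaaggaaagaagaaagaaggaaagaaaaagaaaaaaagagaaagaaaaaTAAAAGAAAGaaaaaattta
Member past HTR7, chr10:90725736-90725845, plus strand: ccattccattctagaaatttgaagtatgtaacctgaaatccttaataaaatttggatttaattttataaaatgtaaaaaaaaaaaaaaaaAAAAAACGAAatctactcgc
Member between MEIS1 and ETAA1, chr2:67006570-67006679, plus strand: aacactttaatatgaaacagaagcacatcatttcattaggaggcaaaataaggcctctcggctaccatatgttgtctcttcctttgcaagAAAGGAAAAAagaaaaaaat
These 3 members had pileups of 47, 46 and 37 reads. The capitals hold 7, 8 and 8 A, and the longest unbroken run of A in each printed stretch was 7, 22 and 7 bases. An A-rich edge cannot be a hexamer site by definition, and the opposite edge of these 3 members was not one either. The stretch past HTR7 does hold AATAAA, but more than 40 bp before the edge.

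An A-rich edge was the prevailing sequence feature of the members. It was present at 1 or both edges of 3559 of 5046 (70.5%, 69.3 to 71.8), while every window of 103 bp, the median member width, in the same intergenic space gave 5.87%. The share was 15.1 points higher (95% Newcombe interval 13.4 to 16.7) than in intergenic peaks within 10 kb of a gene (55.5%) and 43.2 points higher (41.9 to 44.6) than in TES peaks (27.3%). Intronic peaks had a slightly higher share than members (74.0%, a difference of -3.48 points, -4.78 to -2.21). In composition at their edges the members thus lay near intronic peaks and far from TES peaks. The A-rich sequence stood at the right edge only in 1756 members and at the left edge only in 1777, so that both directions were about equally common, and it stood at both edges in 26. With the stricter measure of 25 bases with at most 3 other than A within 50 bp past an edge, 692 members (13.7%, 12.8 to 14.7) qualified, and 574 of all members (11.4%, 10.5 to 12.3) qualified without any of the study's 12 polyadenylation hexamers in the 100 bp before that edge.

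Hexamer sites were less common than A-rich edges, but more common than in the surrounding space. A hexamer site was found in 952 members (18.9%, 17.8 to 20) and in 10.4% of the windows of the space. The share in members was 7.16 points higher (6.09 to 8.28) than in intronic peaks (11.7%) and lower than in intergenic peaks within 10 kb (29.7%, a difference of -10.8 points, -12.2 to -9.37) and in TES peaks (49.5%, a difference of -30.7 points, -31.9 to -29.5). The members therefore ranked between intronic and gene-proximal intergenic peaks. Among the 1005 edges of members with a hexamer site, the hexamer started a median of 23 bp before the edge, most often at 22 bp (92 edges). The search window of 10 to 40 bp bounds this distance. A start within 15 to 35 bp, most of that window, was found at 855 edges (85.1%). At the ends of the window stood 23 edges (10 bp) and 11 edges (40 bp). The distances in the space or in other peak classes were not computed. A core hexamer (AATAAA or ATTAAA) 10 to 40 bp before an edge, whether that edge was A-rich or not, was present in 1337 members (26.5%, 25.3 to 27.7). It was present in 11.1% of the windows of the space. Neither an A-rich edge nor a core hexamer was found in 627 members (12.4%).

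**Figure D1:**
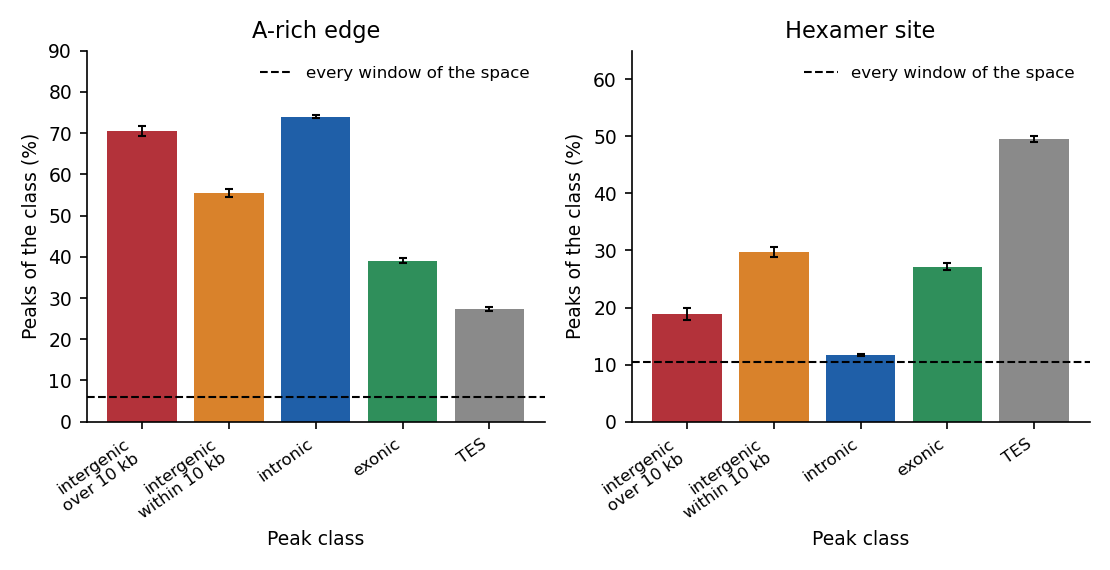
Share of peaks (%) with an A-rich edge (left) and with a hexamer site (right) in each peak class, with 95% Wilson intervals as error bars and, dashed, the share over every 103-bp window of the intergenic space over 10 kb from genes. Members (70.5% and 18.9%) lie next to intronic peaks for A-rich edges and between intronic and nearby intergenic peaks for hexamer sites.

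Members were weak peaks. Their summit pileup had a median of 7 reads over all libraries together, with its 10th and 90th percentiles at 5 and 13 and the highest at 74, over a median local background of 0.240 reads. The median was 8 in intergenic peaks within 10 kb and in intronic peaks, 13 in exonic peaks and 15 in TES peaks. A pileup of at least 20 was reached by 121 members (2.40%, 2.01 to 2.86), against 5.75% of intergenic peaks within 10 kb (a difference of -3.35 points, -3.97 to -2.70), 3.25% of intronic peaks (-0.849 points, -1.25 to -0.378) and 33.8% of TES peaks (-31.4 points, -32.1 to -30.8). The order against intronic peaks depended on the measure. A −log10 q of at least 20 was reached by 2.54% of members and 1.91% of intronic peaks (a difference of 0.623 points, 0.215 to 1.1). A pileup of at least 30 was reached by 0.555% and 0.456%, a small gap for which no interval was computed. Members with an A-rich edge were the least often strong, although they were the most numerous. At least 20 reads were found in 1.46% (1.12 to 1.91) of the 3559 members with an A-rich edge, in 3.95% (2.84 to 5.47) of the 860 with a core hexamer and no A-rich edge, and in 5.58% (4.04 to 7.66) of the 627 with neither. The last 2 intervals overlap, and both lie above that of the A-rich members.

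**Figure D2:**
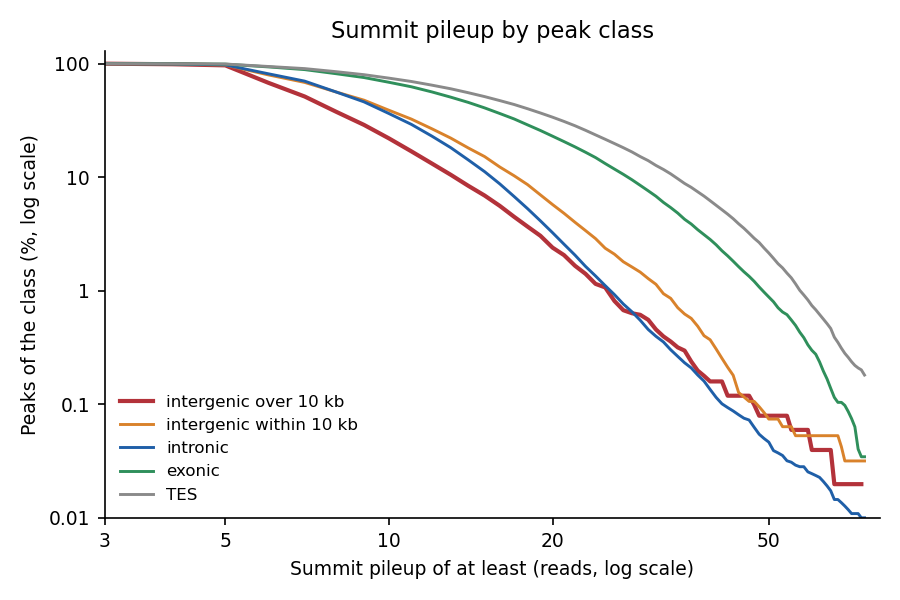
Share of peaks (%, log scale) that reach at least the summit pileup on the horizontal axis (reads, log scale), for each peak class. The curve of the members reaches 2.40% at 20 reads, below intergenic peaks within 10 kb (5.75%) and far below TES peaks (33.8%), and it crosses that of the intronic peaks below 30 reads.

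The 10 members with the highest pileup were not spread evenly over the genome, since 6 of them lay on the short arm of chromosome 2. The strongest, at chr2:67474901-67475120, had 74 reads over a background of 6.11 and lay 62.9 kb past the end of ETAA1, which codes for an activator of the ATR kinase at stalled replication forks. Its only hexamer site pointed to the minus strand, opposite to ETAA1. The member at chr17:43315897-43316199 had 65 reads over 1.95, lay 10.7 kb before the start of CCDC200, and carried neither an A-rich edge nor a hexamer site. The members at chr2:17185365-17185679 (59 reads over 3.66) and chr2:14605924-14606061 (54 reads over 7.11) had a hexamer site each. Both stood on a high local background for members. The member at chr2:15050267-15050425 (47 reads over 0.920) was A-rich on the minus strand, and the member at chr2:15844361-15844576 (41 reads over 1.30) lay 96.1 kb before MYCN, the oncogene amplified in this line, with no A-rich edge and no hexamer site. The last of the 6, at chr2:67006389-67006659, had 37 reads over 3.16. The other 3 strong members had 46 reads (chr10:90725687-90725825, 15.1 kb past HTR7, a serotonin receptor gene), 41 reads (chr13:104228648-104228803) and 38 reads (chr13:56064977-56065140), each over a background between 0.390 and 0.460. Their 31 summit bases occur in 3, 12 and 2 places of the genome.

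The remaining members with strong hexamer sites, 4 more besides the 6 shown, had 32 reads at chr2:15130283-15130450, 36.5 kb past NBAS, 31 reads at chr7:132773215-132773339, 11.6 kb past CHCHD3, and 30 reads each at chr6:48858820-48859003 and chr2:14679342-14679501. NBAS codes for a protein of Golgi-to-endoplasmic-reticulum transport and CHCHD3 for a protein of the mitochondrial cristae. The hexamer sites past NBAS and CHCHD3 stood on the strand of these genes.

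Sequence present in several places of the genome was frequent among members. The 31 bases at the summit occurred more than once in 2281 members (45.2%, 43.8 to 46.6), against 35.4% of intergenic peaks within 10 kb (a difference of 9.83 points, 8.15 to 11.5), 27.2% of intronic peaks (18 points, 16.6 to 19.4) and 14.1% of TES peaks (31.1 points, 29.7 to 32.6). They occurred over 100 times in 1076 members (21.3%). No share over the windows of the space was computed for this feature, so members were compared with other peaks only. The authors had kept reads that map to up to 20 positions, so whether the reads of such a member arose there or at another copy cannot be told apart. The share with an A-rich edge was 62.6% in members with a single-copy summit and 86.9% in those with over 100 copies, with median pileups of 7 and 6 reads.

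A BLAST comparison with the 7SL RNA, the cytoplasmic RNA from which Alu elements derive, marked an Alu-like sequence at 774 members (15.3%, 14.4 to 16.4). Of all windows of 103 bp in the space, 1.64% touched such a match. The share was 1.72 points higher (0.523 to 2.95) than in intergenic peaks within 10 kb (13.6%), 1.97 points higher (0.981 to 3.01) than in intronic peaks (13.4%) and 11.1 points higher (10.1 to 12.1) than in TES peaks (4.25%). Of the members with an A-rich edge, 20.5% (19.2 to 21.8) had such a match, against 3.09% (2.33 to 4.10) of the others. In all 728 matched members that were A-rich at exactly 1 edge, the match lay on the strand given by that edge, the direction in which the A tract of an Alu element lies.

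The 31 summit bases of 1385 members (27.4%, 26.2 to 28.7) also occurred in an annotated spliced transcript of a gene elsewhere, in 431 (8.54%, 7.80 to 9.34) in transcripts of 1 to 3 genes. This share was not computed for other peak classes or for the space, so whether it is particular to members cannot be told. Among the 121 members with at least 20 reads, 25 (20.7%, 14.4 to 28.7) had such a match. They included 46 reads at chr10:90725687-90725825 (NAP1L1, a histone chaperone), 41 at chr13:104228648-104228803 (BCYRN1, the neuronal BC200 RNA), 35 at chr4:132528077-132528216 (EEF1A1, the translation elongation factor), 35 at chr14:52999679-52999809 (KPNB1, a nuclear import receptor), 33 at chrX:44794791-44794919 (ACTB, cytoplasmic actin), 31 at chr7:45251947-45252102 (MT-RNR2, a mitochondrial ribosomal RNA) and 30 at chr1:205958282-205958407 (UBE2G1, a ubiquitin-conjugating enzyme). These are the strongest matches outside chromosome 8, and they were chosen after their values were seen. The printed sequences near LINC01256 and RN7SL291P belong to the EEF1A1 and ACTB matches, and that past HTR7 to the NAP1L1 match.

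The space more than 10 kb from any gene amounted to 775 Mb, 26.6% of the sequenced bases, and held 6.51 members per Mb, against 80.9 other peaks per Mb in the rest of the genome. By chromosome the density ran from 2.86 members per Mb on chromosome 13 to 12.5 on chromosome 22, with 9.96 on chromosome 2, which held the most members (614). Members thinned out with distance. The median distance to the nearest gene was 22.1 kb, with the 10th and 90th percentiles at 11.4 and 86.3 kb. There were 12.6 members per Mb of space at 10 to 20 kb, 6.89 at 20 to 50 kb, 3.94 at 50 to 100 kb, 3.28 at 100 to 200 kb, 2.37 at 200 to 500 kb and 0.157 beyond 500 kb. The space counts every base other than N. How much of it reads can be mapped to was not measured, which limits the farthest range most. The median pileup was 6 or 7 reads in every one of these distance ranges up to 500 kb and 5 among the 8 members beyond. The share with a hexamer site was 21.2% (19.6 to 23) at 10 to 20 kb and 9.60% (6.77 to 13.5) at 100 to 200 kb, and that with an A-rich edge 67.5% (65.6 to 69.4) and 79.8% (74.9 to 83.9), so the sequence of the members shifted towards A-rich edges at larger distances.

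The 3 members farthest from any gene lay at chr1:125111911-125112010 and chr1:125092304-125092403, 3531 and 3512 kb from LINC01691, and at chr15:17071045-17071146, 2807 kb from a pseudogene. They had 5, 5 and 6 reads, and their summit sequences occur in 30, 21 and 2266 places. At the other end of the range, the 3 members just past 10 kb, nearest to the lncRNA gene ENSG00000289159, to STXBP4 and to RCC2, had 7, 6 and 4 reads, and the 3 peaks just within it, nearest to LINC01703, ARHGEF4-AS1 and RPSAP2, had 5, 8 and 20.

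Which way a member points could be read where exactly 1 edge was A-rich. In intronic peaks, where the strand of the gene is known, this rule gave the strand of the gene in 94.7% of cases, and it did so in 88.2% of exonic and 86.5% of TES peaks. Hexamer sites gave it in 91.9% of TES peaks but in 63.4% of intronic peaks. In a peak that is A-rich at 1 edge, a hexamer site can stand only at the other edge, so the rules then disagree by definition. An A-rich edge was present in 74.0% of intronic and 27.3% of TES peaks, so these shares do not compare hexamers alone. Members that lay past the end of their nearest gene pointed along that gene more often than members that lay before a gene start. Of 1984 oriented members past an end, 1278 (64.4%, 62.3 to 66.5) were on the gene's strand, against 790 of 1549 (51.0%, 48.5 to 53.5) before a start, a difference of 13.4 points (10.1 to 16.7). For protein-coding nearest genes the shares were 78.2% (603 of 771) and 52.1% (233 of 447), a difference of 26.1 points (20.6 to 31.5). For lncRNA genes they were 58.9% and 55.0%, with overlapping intervals (54.9 to 62.7 and 50.7 to 59.2). Read by hexamer sites at 1 edge only, members of protein-coding genes gave 74.7% (68.8 to 79.8) past the end and 52.7% (43.5 to 61.8) before the start. Members A-rich at the opposite edge were not left out of these shares.

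The same-strand share past protein-coding ends went with the strength of the TES peaks of the gene itself, a comparison added after the first results were seen. It was 53.7% (51 of 95, 43.7 to 63.4) where the gene had no peak at any annotated TES, 76.5% (163 of 213, 70.4 to 81.7) where its highest TES pileup was 1 to 19 reads, and 84% (389 of 463, 80.4 to 87.1) where it was at least 20. The first and the last differed by 30.3 points (20 to 40.8). The set with no TES peak included the members past TRHR, described below, with 0 of 8 oriented ones on its strand. The median pileup of the members themselves was 7 reads in all 3 sets. Before gene starts the shares were 41.3% (31.8 to 51.5), 50.8% (41.9 to 59.7) and 57.0% (50.6 to 63.1).

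The 1149 members past protein-coding ends belonged to 607 genes, of which 369 had 1 such member and 40 had at least 5. Among the genes with the most members, chosen after their values were seen, were NBAS (22 members, 12 of 12 oriented ones on its strand), TBC1D32, a ciliary gene (13 members, 9 of 9), TRHR, the gene of the thyrotropin-releasing hormone receptor (11 members, 0 of 8, with no peak at its own TES), and TBC1D19 (10 members, 6 of 6). The oriented members past TRHR were all on the minus strand, that of NUDCD1 on the same chromosome. NUDCD1 had 8 members past its end, with 7 of 7 oriented ones on its strand, and a highest TES pileup of 26 reads. A nearest gene was assigned by distance alone. The members past TBC1D32 reached 115 kb from its end and those past NBAS 83.4 kb. IPO11, a nuclear import gene, had 9 members with 4 of 6 on its strand, and ETAA1 had 8 members with 0 of 2 on its strand and a median pileup of 18 reads.

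Some members lay in gene bodies of another annotation. RefSeq genes covered 1188 members (23.5%, 22.4 to 24.7), including protein-coding genes for 356 (7.06%, 6.38 to 7.79), of which NBAS held 43, PPARGC1A 15 and TBC1D19 14. All 22 members past the GENCODE end of NBAS and all 10 past that of TBC1D19 lay in a RefSeq gene. With members in RefSeq genes left out, 64.2% (61.8 to 66.5) of 1572 oriented members past the end of any gene were on its strand. The shares for protein-coding genes and by TES pileup were not computed without these members, so part of them comes from RefSeq gene bodies. The median pileup was 7 reads inside RefSeq genes and 6 outside them.

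Neighbouring members mostly pointed in the same direction. Pairs of neighbouring oriented members up to 2 kb apart had the same orientation in 309 of 324 cases (95.4%, 92.5 to 97.2). The share was 91.0% at 2 to 5 kb, 92.4% at 5 to 10 kb, 88.3% at 10 to 20 kb, 85.7% at 20 to 50 kb and 68.6% (61.3 to 75.1) at 50 to 100 kb. With members inside RefSeq genes left out, the shares were 94.2% (90.4 to 96.6) up to 2 kb and 67.7% (59.2 to 75.1) at 50 to 100 kb. When members less than 10 kb apart were joined, 3071 clusters resulted, of which 2229 were single members and 417 had at least 3 members and held 39.0% of all. Of 129 clusters with at least 5 members and at least 3 oriented ones, 115 (89.1%) had all oriented members in the same direction.

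In each of the 5 clusters with the most members, all oriented members pointed the same way. The largest held 25 members over 69.8 kb, chr2:15034760-15104552, with pileups of 6 to 47 reads and 17 of 17 oriented members on the minus strand, the strand of NBAS, whose RefSeq body covers all of them. The next held 21 members over 64.1 kb, chr2:66741804-66805899, 168 kb past MEIS1, a homeobox transcription factor gene, with pileups of 9 to 28 reads and 14 of 14 oriented members on the plus strand, that of MEIS1. The third, chr21:27814152-27891159, held 18 members over 77.0 kb in the interval between ADAMTS5, a proteoglycan-degrading protease gene, and N6AMT1, a methyltransferase gene. Its pileups were 3 to 19 reads and 13 of 13 oriented members were on the minus strand. The fourth (18 members, chr6:120087361-120137560) and the fifth (17 members, chr6:120029440-120077193) lay side by side between MAN1A1, a Golgi mannosidase gene, and TBC1D32, both on the minus strand, whereas 14 of 14 and 11 of 11 oriented members were on the plus strand.

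Joining members less than 50 kb apart, a distance chosen after the clusters were seen, made the chromosome 6 group the largest of 2364 runs. It spanned 412 kb, chr6:120029440-120440944, and held 97 members with pileups of 6 to 26 reads and a median of 11. Of these, 67 were A-rich on the plus strand, 0 on the minus strand and 30 had no orientation. No GENCODE gene lay inside the run, none of its members lay in a RefSeq gene, every peak of the list within it was a member, and the nearest protein-coding genes were 680 kb (MAN1A1) and 639 kb (TBC1D32) away. The other runs of over 30 members also pointed in a single direction, with 1 exception among the oriented members. They were 43 members over 151 kb from 11.5 kb past the GENCODE end of NBAS (26 minus, 0 plus), 42 over 388 kb on chromosome 12 from 53.5 kb past ALX1, a homeobox gene (31 plus, 0 minus), 39 over 270 kb on chromosome 3, 252 kb before the start of LSAMP, a neuronal adhesion gene on the minus strand (35 minus, 0 plus), 35 over 182 kb on chromosome 21 (27 minus, 0 plus), 34 over 264 kb on chromosome 3 from 18.7 kb past DIPK2A (24 plus, 0 minus) and 31 over 151 kb past MEIS1 (17 plus, 1 minus). RefSeq genes covered 22 of the 42 members past ALX1, 12 of the 39 near LSAMP and 20 of the 34 past DIPK2A, and none of those on chromosome 21 or past MEIS1. The genes named for runs are protein-coding, and MEIS1 lay 168 kb from its run. GENCODE genes lay inside the runs past ALX1 (1), near LSAMP (1), past DIPK2A (1) and past MEIS1 (2). Members and other peaks together numbered 48, 44, 36 and 42 in these runs.

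Hexamer sites pointed the same way as the A-rich members around them. Among members with a hexamer site at 1 edge only whose run had at least 3 other oriented members, all in 1 direction, 179 of 224 (79.9%, 74.2 to 84.6) pointed that way, and 173 of 190 (91.1%, 86.1 to 94.3) did when A-rich at neither edge. The first share includes members that are A-rich at 1 edge. By definition their hexamer site can stand only at the other edge.

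Along chromosome 2, segments of the short arm stood apart in pileup and background, and their borders were drawn after the values were seen. The segment from 14 to 18 Mb held 80 members (63.3 per Mb of its space) with a median pileup of 12 reads, and the segment from 66 to 68 Mb held 65 (94.8 per Mb) with a median of 13. Other places were as dense, such as the 1 Mb window of chromosome 6 that holds the long run (160 per Mb). The first segment was uneven, with 211 members per Mb from 15 to 16 Mb but 3.40 (1 member, background 0.215) from 16 to 17 Mb and 12.5 from 17 to 18 Mb. In each segment, 20% of the members reached 20 reads, while 1.88% of the 4901 members elsewhere did. The difference was 18.1 points for both segments together. No interval is given for it, because the borders were chosen on these same values. These 145 members, 2.87% of all, held 29 of the 121 with at least 20 reads (24%) and 6 of the 10 strongest. Peaks of genes moved with them: the median local background of intronic peaks was 1.37 reads in the 14 to 18 Mb segment and 2.88 in the 66 to 68 Mb segment, against 0.440 elsewhere, and the median background of the members was 0.880, 1.17 and 0.230. The background was computed from the same pooled reads as the pileup, and a peak on a higher background needs a higher pileup to be called. DNA copy number was not measured here, and its part in these values was not tested. Within 1 Mb of MYCN on each side lay 60 members (110 per Mb of space) with a median pileup of 10 reads, of which 43 lay in the RefSeq body of NBAS, and 6 reached 20 reads.

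**Figure D3:**
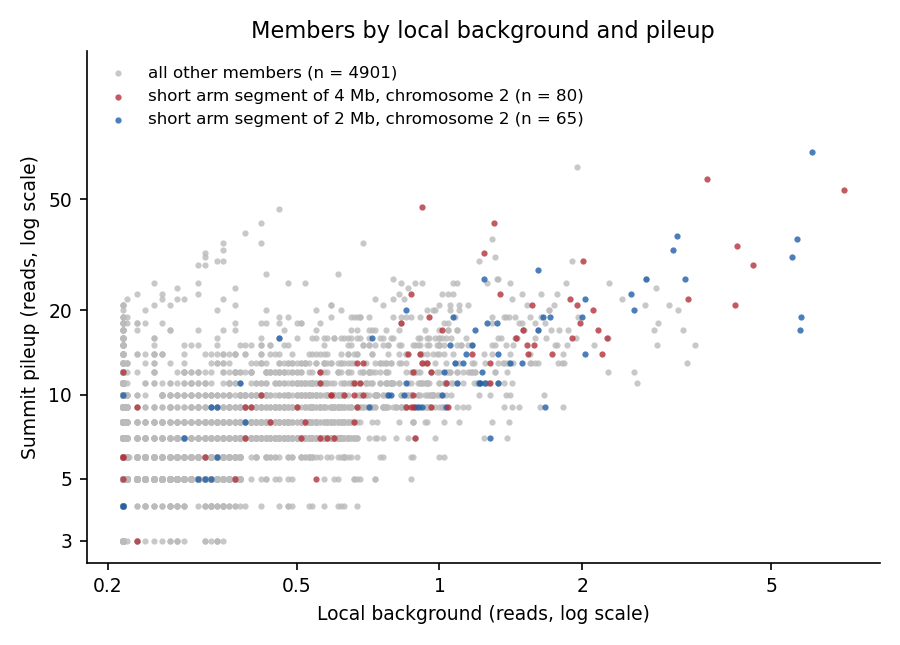
Summit pileup of each member (reads, log scale) against its local background (reads, log scale), with the members of chromosome 2 between 14 and 18 Mb (80, the 4 Mb segment) and between 66 and 68 Mb (65, the 2 Mb segment) in colour. The coloured members lie towards the upper right, with median pileups of 12 and 13 reads against 7 for the others. Both axes come from the same pooled reads.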

How the data were processed

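Poly(A) 3′-seq libraries of IMR-32 cells (QuantSeq REV) had been sequenced in 10 libraries from 5 shRNAs. The authors trimmed the reads with bbduk, aligned them to GRCh38 with STAR 2.5.1b keeping up to 20 positions per read, downsampled the libraries to the smallest one, since they came from 2 batches of unequal depth, merged them and called peaks once with MACS2 2.1.1 (fragments of 100 bp, no model). The deposited list held 178837 peaks, of which 177793 on chromosomes 1 to 22 and X were used. Its values are, per the file format, a score (from the q-value), the fold enrichment over local background, a −log10 p-value and a −log10 q-value, and the authors' summit offset. No depth per library is held in it. The A-stretch filter described in the study's methods is not visible as applied in this list, since 574 members carried such a stretch without a hexamer, read at either edge.

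From the deposited fold and −log10 p-value the whole summit pileup and the background were recovered, with a largest miss of 0.000146 in −log10 p against a median of 0.0781 for the next whole number. The highest pileup on the chromosomes used was 185. The study's methods name no setting for reads that share a position. If the caller kept only 1 of them, the pileup is lower than the number of reads. Peak classes followed the order of TES (200 bp before to 600 bp past a transcript end), exon, intron and intergenic, by the summit and GENCODE 44. Sequence features were read from GRCh38, and background shares over every position of the intergenic space. Alu-like sequence was a blastn match (BLAST+ 2.17.0, E-value 1e-10) to RN7SL1, and RefSeq genes were those of GRCh38.p14. Shares carry 95% Wilson intervals and differences 95% Newcombe intervals. They cover counting error over peaks only, and peaks of the same run or repeat family are not independent, so the intervals are too narrow. Scripts (Python 3.11.15, SciPy 1.17.1) were tested on simulated data.

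The text names the 10 members with the highest pileup, the 10 highest with a hexamer site at 1 edge only, the 5 clusters with the most members, the 3 members farthest from genes and the 3 peaks on each side of 10 kb, with their nearest genes, and MYCN. Members, lists and rules were chosen with earlier results of these data known, and the RefSeq overlap, the 50 kb runs, the chromosome 2 segments, the 7SL and transcript matches and the split by TES pileup were added after the first tables were seen. Alternatives covered the q-value, distance, annotation, motif and copy-number settings.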

Additional observations from a re-analysis of the deposited data

How the results depend on the processing

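No paired analysis was possible because every peak value was computed over the merged reads of the 10 libraries, which also kept any single library from being left out. Of 48 alternatives to 8 values, 17 stayed within the 95% interval of the value reported and 31 moved beyond it. With a −log10 q of at least 5, members were 2.35% of peaks and 3.94 per Mb, and 28.0% had a core hexamer (26.5% as reported). With at least 20, left to 128 members, the values were 1.00% of peaks, 0.165 per Mb, 47.7% A-rich edges, 38.3% core hexamers, 27.3% hexamer sites, 57.8% multicopy summits and 78.3% (23 members) on the strand of the gene whose end they lay past. At more than 5, 20 and 50 kb the members were 4.50%, 1.56% and 0.579% of peaks and 8.71, 4.67 and 3.01 per Mb. Beyond 20 kb, 73.0% had an A-rich edge, 24.5% a core hexamer, 16.9% a hexamer site and 48.6% a multicopy summit. Counting distance to protein-coding and lncRNA genes alone gave 4.29% of peaks. Requiring 6 or 8 A of 10 gave 79.6% and 57.4% A-rich edges. Single-copy summits gave 62.6% A-rich edges, 33.2% core hexamers and 25.2% hexamer sites. All 12 hexamers gave 45.0% and, as sites, 28.8%, a window of 1 to 100 bp gave 37.4% core hexamers, and at most 5 A gave 16.9% hexamer sites. Outside RefSeq genes 71.8% had an A-rich edge, an alternative chosen after seeing the data. Median pileup was 6 or 7 reads under its 6 alternatives, also without both chromosome 2 segments. Low counts limit all values, since the median member has a pooled pileup of 7.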
